A study of Bos taurus with 8 samples.

Results

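Of 40 genes of phospholipid synthesis and remodelling measured in bovine granulosa cells, 5 (12.5%) differed between cultures treated with non-esterified fatty acids (NEFA) and those treated with bovine serum albumin (BSA). Over all genes 2.35% did. PCYT2, LPCAT1 and MBOAT7 fell with NEFA, while CDS1 and PLBD1 rose, each by 1.23- to 1.42-fold. When 1 array was left out, MBOAT7 lost its call in each of 8 fits and CDS1 in 6. None of the 5 passed with the replicate number as a block. The 40 genes are 16 of head-group synthesis, 10 of acyl remodelling, 5 of cardiolipin synthesis and 9 phospholipases and related hydrolases, out of 18010 genes named on the array. A gene was taken where its symbol was the only one annotated to a probe set, and each of the 40 had a single probe set. For 39 genes the symbol matched as listed, and tafazzin, listed under its older symbol TAZ, was annotated as TAFAZZIN.

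Primary granulosa cells, the somatic cells around the oocyte, were grown without serum in alpha-MEM holding FSH, IGF-1 and androstenedione, the same for both groups. BSA (4 arrays) or NEFA (4 arrays) was given with fresh medium on day 2 and again on day 4, and cells were analysed on day 6. The labels give neither the composition and dose of the fatty acids nor the age of the donor animals, nor do they say whether the 4 replicates of a group came from different animals, pools or cultures. The p-values therefore describe the spread among these arrays, part or all of which may be technical. Values are log2 expression after robust multi-array averaging (RMA), and changes are NEFA minus BSA.

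Membrane phospholipids are built from diacylglycerol or phosphatidic acid. In the Kennedy pathway, choline and ethanolamine are phosphorylated, activated with CTP and joined to diacylglycerol. In the other route phosphatidic acid is itself activated to CDP-diacylglycerol, the precursor of phosphatidylinositol, phosphatidylglycerol and the mitochondrial lipid cardiolipin. Phospholipases then remove acyl chains or head groups, and lysophospholipid acyltransferases put new acyl chains on, a cycle of removal and replacement that sets which fatty acids membranes hold. The roles given for single enzymes are known chiefly from human, mouse and rat.

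The label of the cells was checked against marker genes. All 15 listed granulosa markers were measured, with mean levels from 4.83 to 11.71. The per-array mean of the list ran from 8.63 to 8.81 with BSA and from 8.64 to 8.78 with NEFA. That mean averages opposed changes, from -0.745 for HSD17B1 to 0.505 for CYP19A1. None of the 15 passed the adjusted threshold used below, and 6 had an unadjusted p (limma) under 0.05 (3 higher, 3 lower). The mean of the 10 leukocyte markers ran from 3.36 to 3.48 and from 3.45 to 3.64. That of the 7 endothelial markers ran from 3.77 to 3.96 and from 3.79 to 3.89. Both means were under the median probe set of the arrays, at 4.81. Of the single endothelial genes, VWF (means 5.26 for BSA, 4.915 for NEFA) was above it, and CLDN5 (4.78, 4.98) was above it with NEFA. Of the leukocyte and endothelial markers VWF fell. The 7 oocyte markers were dim too, at 2.84 to 2.95 with BSA and 2.99 to 3.07 with NEFA, and none passed. For 9 markers of stroma and smooth muscle the mean ran from 7.45 to 7.50 with BSA and from 7.59 to 7.88 with NEFA, without overlap, and 2 of them (DCN and RGS5) rose while PDGFRA fell. The 8 theca markers ran from 6.84 to 6.92 and from 6.96 to 7.09, also without overlap, with none past the threshold. Of the 8, 6 had an unadjusted p (limma) under 0.05 (4 higher, 2 lower), where 16.8% of all genes did. The groups did not overlap for 4 of the 8, where this held for 12.4% of all genes. The theca markers lay on both sides of the median probe set. CYP17A1, which defines theca cells (means 3.11 for BSA, 3.43 for NEFA), GLI1 (3.78, 4.15) and LHCGR (2.70, 2.73) were under it. INSL3 (7.87, 8.09), NR2F2 (7.46, 7.515), PTCH1 (6.175, 6.39), CYP11A1 (11.48, 11.36) and HSD3B1 (12.505, 12.37) were above it. The mean of the theca list too averages opposed changes, from -0.1325 for HSD3B1 to 0.3675 for GLI1. Whether theca cells were present was not tested. Because the RNA came from whole cultures, fewer cells of a type and less RNA per cell cannot be told apart, and the part of these shifts in the results below was not tested.

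The test was limma across all 24415 probe sets, with p-values adjusted by the Benjamini-Hochberg method over all of them and a threshold of 0.05. By it 5 of the 40 genes (12.5%) were called, where 2.35% of all genes were called (423 of 18010). All 40 genes lay above the median probe set, and among the 9799 genes at least as bright as the dimmest of them 3.79% were called. The 40 genes had a median change of -0.03 and a median absolute change of 0.076, against 0.005 and 0.088 over all genes. The groups did not overlap for 9 of the 40 genes (22.5%), where this held for 12.4% of all genes. Taking unadjusted p-values under 0.05 instead, 9 of the 40 genes qualified (2 higher, 7 lower), where 16.8% of all genes did. With a variance prior that follows the mean level (trend and robust settings of eBayes) 8 of the 40 passed, where 6.09% of all genes did. Without 1 array the count was 3 (without BSA 1, 2 or 4 or NEFA 1, 2 or 4) or 4 (without BSA 3 or NEFA 3), and with the replicate number as a block it was 0. The count over all genes dropped too, from 423 to between 164 and 260 without 1 array and to 77 with the block.

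**Figure D1:**
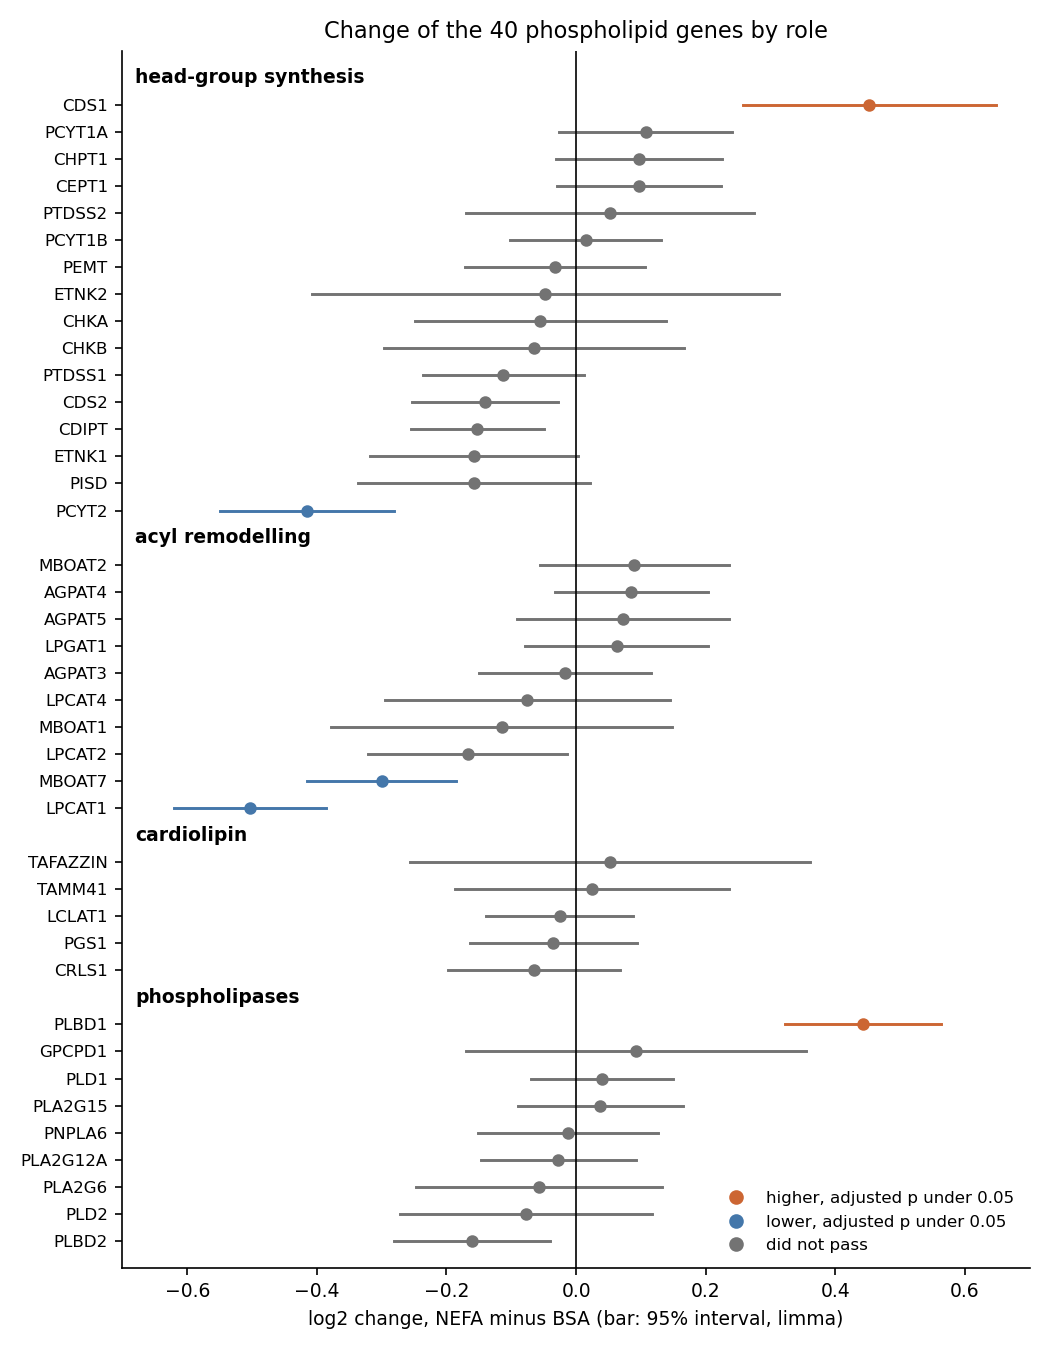
Change in log2 expression (NEFA minus BSA, horizontal axis) of each of the 40 genes, grouped by role, with the 95% interval from limma as a bar. CDS1 and PLBD1 lie to the right and PCYT2, LPCAT1 and MBOAT7 to the left; the other 35 genes changed by between -0.17 and 0.11.

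In head-group synthesis, 1 of 16 genes fell, 1 rose and 14 missed the threshold. Their median change was -0.05, and between -0.081 and -0.017 without 1 array. PCYT2, the enzyme that activates phosphoethanolamine with CTP and limits the rate of the ethanolamine branch of the Kennedy pathway, read 7.05, 7.14, 7.09 and 7.0 on BSA 1 to 4. With NEFA it read 6.66, 6.61, 6.76 and 6.59, so that each NEFA array lay below each BSA array. PCYT2 fell by 0.415 on the log2 scale (SE 0.0587), or 1.33-fold, with means of 7.07 ± 0.06 for BSA and 6.66 ± 0.08 for NEFA (SD, n = 4; adjusted p = 0.0128, limma). The call held without any 1 of the 8 arrays, with adjusted p (limma) from 0.0193 to 0.0491.

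The ethanolamine kinases that act just before PCYT2 did not pass. ETNK1 was 7.65 ± 0.10 with BSA and 7.49 ± 0.09 with NEFA (SD, n = 4), a change of -0.157 with a 95% interval from -0.32 to 0.004 (limma, adjusted p = 0.327). ETNK2 had the largest standard error of the 40 genes (0.158), with readings of 6.69, 6.70, 6.42 and 6.04 on BSA 1 to 4 and 6.52, 6.50, 6.51 and 6.13 on NEFA 1 to 4. The lowest reading in each group was on array number 4, and the groups overlapped over most of their range.

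Over all genes 2.35% passed in limma and 16.8% had an unadjusted p (limma) under 0.05. Among the 7 genes of phosphatidylcholine synthesis none passed, and none had an unadjusted p under 0.05. They comprise the choline kinases CHKA and CHKB, the CTP-dependent PCYT1A and PCYT1B, the transferases CHPT1 and CEPT1 that complete the lipid, and PEMT, which methylates phosphatidylethanolamine. Their changes ran from -0.065 to 0.108, and their 95% intervals together from -0.30 to 0.24. PCYT1A, the rate-limiting enzyme of this branch, had the largest of these changes, at 0.11 (8.41 ± 0.09 to 8.51 ± 0.03; SD, n = 4). CEPT1, which can use choline or ethanolamine, read 7.83, 7.85, 7.86 and 7.72 with BSA and 7.87, 7.99, 7.91 and 7.88 with NEFA. Its groups did not overlap, but the gap between them was 0.01 and the gene did not pass (limma, adjusted p = 0.435).

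The 3 genes of phosphatidylserine and its decarboxylation did not pass either. The serine exchange enzymes PTDSS1 and PTDSS2 changed by -0.11 and 0.05. PISD, the mitochondrial decarboxylase that turns phosphatidylserine into phosphatidylethanolamine, was 6.41 ± 0.12 with BSA and 6.25 ± 0.11 with NEFA (SD, n = 4), a change of -0.157 with a 95% interval from -0.34 to 0.02.

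Of the 3 genes of the CDP-diacylglycerol branch, 1 rose and 2 did not pass. CDS1, a CDP-diacylglycerol synthase of the endoplasmic reticulum, read 6.42, 6.33, 6.60 and 6.32 on BSA 1 to 4 and 6.99, 6.93, 6.71 and 6.85 on NEFA 1 to 4. The groups did not overlap, with BSA 3 and NEFA 3 nearest each other. CDS1 rose by 0.45 (SE 0.0857), or 1.37-fold, from 6.42 ± 0.13 to 6.87 ± 0.12 (SD, n = 4; limma, adjusted p = 0.0387). The call was near the threshold: it was lost without BSA 1, 2 or 4 and without NEFA 1, 2 or 4, at adjusted p (limma) from 0.0858 to 0.105, and with each array centred on its median (0.42, adjusted p = 0.0528). It also missed without moderation of the variances (adjusted p = 0.0695).

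The second CDP-diacylglycerol synthase, CDS2, read 8.85, 8.84, 8.90 and 8.80 with BSA and 8.67, 8.74, 8.75 and 8.67 with NEFA. CDIPT, which joins CDP-diacylglycerol to inositol, read 8.60, 8.62, 8.59 and 8.57 with BSA and 8.42, 8.42, 8.45 and 8.48 with NEFA. For both genes every NEFA array lay below every BSA array, but the shifts were small, at -0.14 for CDS2 and -0.15 for CDIPT, and neither passed (limma, adjusted p = 0.211 and 0.140). With trend and robust eBayes both passed, at adjusted p = 0.045 and 0.021 (limma), and CDIPT also passed without moderation (adjusted p = 0.0196).

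**Figure D2:**
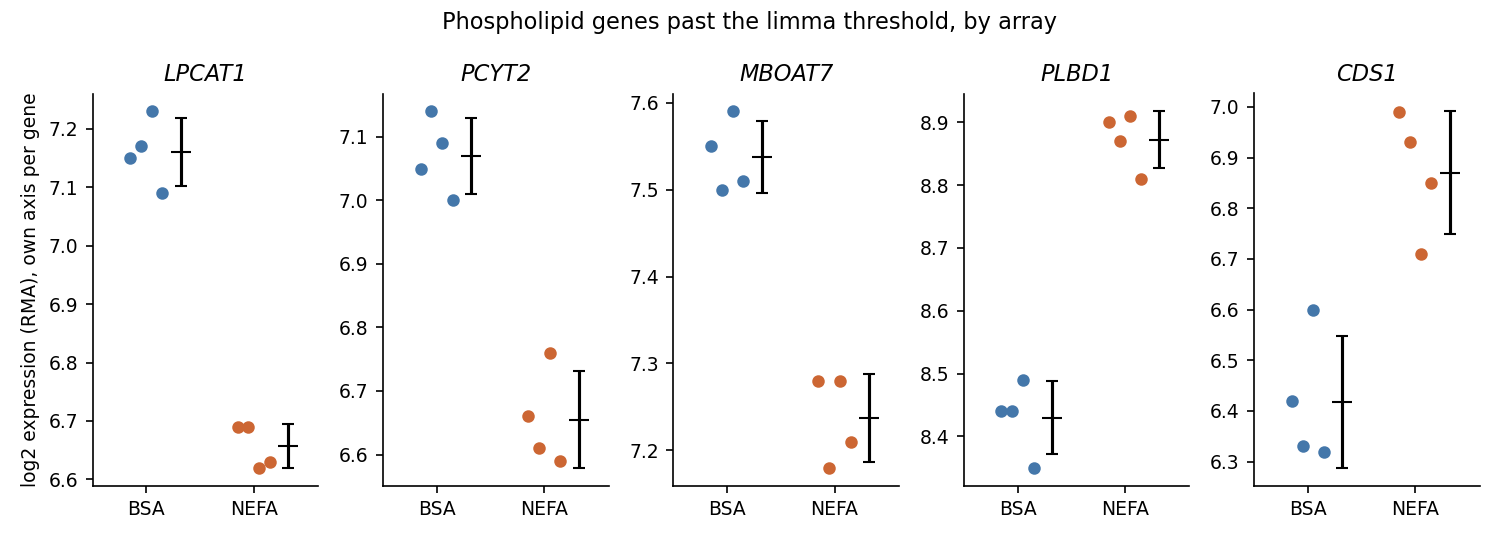
Log2 expression on each array for the 5 genes past the limma threshold, with BSA and NEFA on the horizontal axis, 1 point for each array, and the mean ± SD of 4 arrays beside them; each gene has its own vertical axis, which does not start at 0. In every panel the groups are separate, with the smallest gap in CDS1, between 6.60 (BSA 3) and 6.71 (NEFA 3).

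In acyl remodelling, 2 of 10 genes fell and 8 missed the threshold. The median change was -0.046, or 0.00 without NEFA 3 and -0.03 without BSA 2. The larger fall was that of LPCAT1, an acyltransferase known for making disaturated phosphatidylcholine in lung surfactant. LPCAT1 read 7.15, 7.17, 7.23 and 7.09 on BSA 1 to 4 and 6.69, 6.69, 6.62 and 6.63 on NEFA 1 to 4. The gap between the groups, 0.40, was wider than the range within either. LPCAT1 fell by 0.50 on the log2 scale (SE 0.0515), or 1.42-fold, from 7.16 ± 0.06 to 6.66 ± 0.04 (SD, n = 4; limma, adjusted p = 0.00305). By p it ranked 44 of 18010 genes, and by size 74 of the 243 falls. The call held without any 1 array, at adjusted p (limma) from 0.00976 to 0.0144.

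MBOAT7, which puts arachidonate and similar chains on lysophosphatidylinositol, read 7.55, 7.50, 7.59 and 7.51 with BSA and 7.28, 7.18, 7.28 and 7.21 with NEFA. It fell by 0.30 (SE 0.0506), or 1.23-fold, from 7.54 ± 0.04 to 7.24 ± 0.05 (SD, n = 4; limma, adjusted p = 0.0245). The groups were well apart, yet the call was lost without any 1 of the 8 arrays (BSA 1, 2, 3 or 4 or NEFA 1, 2, 3 or 4), at adjusted p (limma) from 0.0573 to 0.0800, while the change stayed between -0.314 and -0.281. Over all genes the calls fell from 423 to between 164 and 260 when 1 array was left out.

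LPCAT2, which can also make platelet-activating factor, read 5.75, 5.72, 5.67 and 5.71 with BSA and 5.71, 5.44, 5.55 and 5.48 with NEFA. Only NEFA 1 overlapped with the BSA arrays, and the change of -0.17 did not pass (limma, adjusted p = 0.269; 95% interval from -0.32 to -0.015). MBOAT1, of the same enzyme family as MBOAT7, changed by -0.115 with a wide interval, from -0.38 to 0.15. AGPAT4, an acyltransferase of lysophosphatidic acid, changed by 0.085 and was 5.31 ± 0.05 with BSA and 5.40 ± 0.05 with NEFA (SD, n = 4; limma, adjusted p = 0.469). The other 5 genes, LPCAT4, LPGAT1, MBOAT2, AGPAT3 and AGPAT5, changed by between -0.075 and 0.09.

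None of the 5 cardiolipin genes passed in limma, none had an unadjusted p under 0.05, and their groups overlapped in every case. Over all genes 2.35% passed, 16.8% had an unadjusted p (limma) under 0.05 and 12.4% had groups without overlap. With just 5 genes, these counts cannot be told apart from those shares. TAMM41 makes mitochondrial CDP-diacylglycerol, PGS1 joins it to glycerol phosphate, CRLS1 makes cardiolipin in a later step, and tafazzin and LCLAT1 exchange the acyl chains of cardiolipin. The largest changes were -0.065 for CRLS1 (7.50 ± 0.07 to 7.43 ± 0.07; SD, n = 4) and 0.05 for TAFAZZIN. PGS1 and LCLAT1 changed by -0.035 and -0.025, with 95% intervals from -0.16 to 0.09 and from -0.14 to 0.09. TAFAZZIN, the dimmest of the 40 genes, read 5.32, 5.05, 4.60 and 4.86 on BSA 1 to 4 and 4.99, 5.03, 4.97 and 5.05 on NEFA 1 to 4. Its BSA arrays spread over 0.72 and its NEFA arrays over 0.08, so its interval was the widest of the 5, from -0.26 to 0.36.

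Among the 9 phospholipases and related hydrolases, 1 rose and 8 missed the threshold, and the median change was -0.01. That median had no stable sign: it was 0.02 without BSA 2, 0.006 without NEFA 4 and 0.009 with a further quantile normalization. PLBD1, a phospholipase B-like protein reported to release fatty acids from phospholipids in human neutrophils, read 8.44, 8.44, 8.49 and 8.35 on BSA 1 to 4 and 8.90, 8.87, 8.91 and 8.81 on NEFA 1 to 4. The lowest NEFA array lay 0.32 above the highest BSA array. PLBD1 rose by 0.44 (SE 0.0526), or 1.36-fold, from 8.43 ± 0.06 to 8.87 ± 0.05 (SD, n = 4; limma, adjusted p = 0.00548). It ranked 77 of 18010 genes by p and 107 of the 180 rises by size, and its call held without any 1 array, at adjusted p (limma) from 0.0127 to 0.0270.

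PLBD2, the related lysosomal protein, read 9.89, 9.87, 9.81 and 9.77 with BSA and 9.61, 9.73, 9.69 and 9.67 with NEFA. Every NEFA array lay below every BSA array, but the change of -0.16 did not pass (limma, adjusted p = 0.183), though it did with the trend and robust settings (adjusted p = 0.0183). GPCPD1, which splits glycerophosphocholine, changed by 0.09 with a 95% interval from -0.17 to 0.35, and its lowest reading was 6.15 on BSA 1. PLD2, which like PLD1 releases phosphatidic acid from phosphatidylcholine, changed by -0.08 and PLD1 by 0.04. The phospholipases A2 PLA2G6 (calcium-independent), PLA2G12A (secreted) and PLA2G15 (lysosomal), together with PNPLA6, the neuropathy target esterase, changed by between -0.06 and 0.04.

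**Figure D3:**
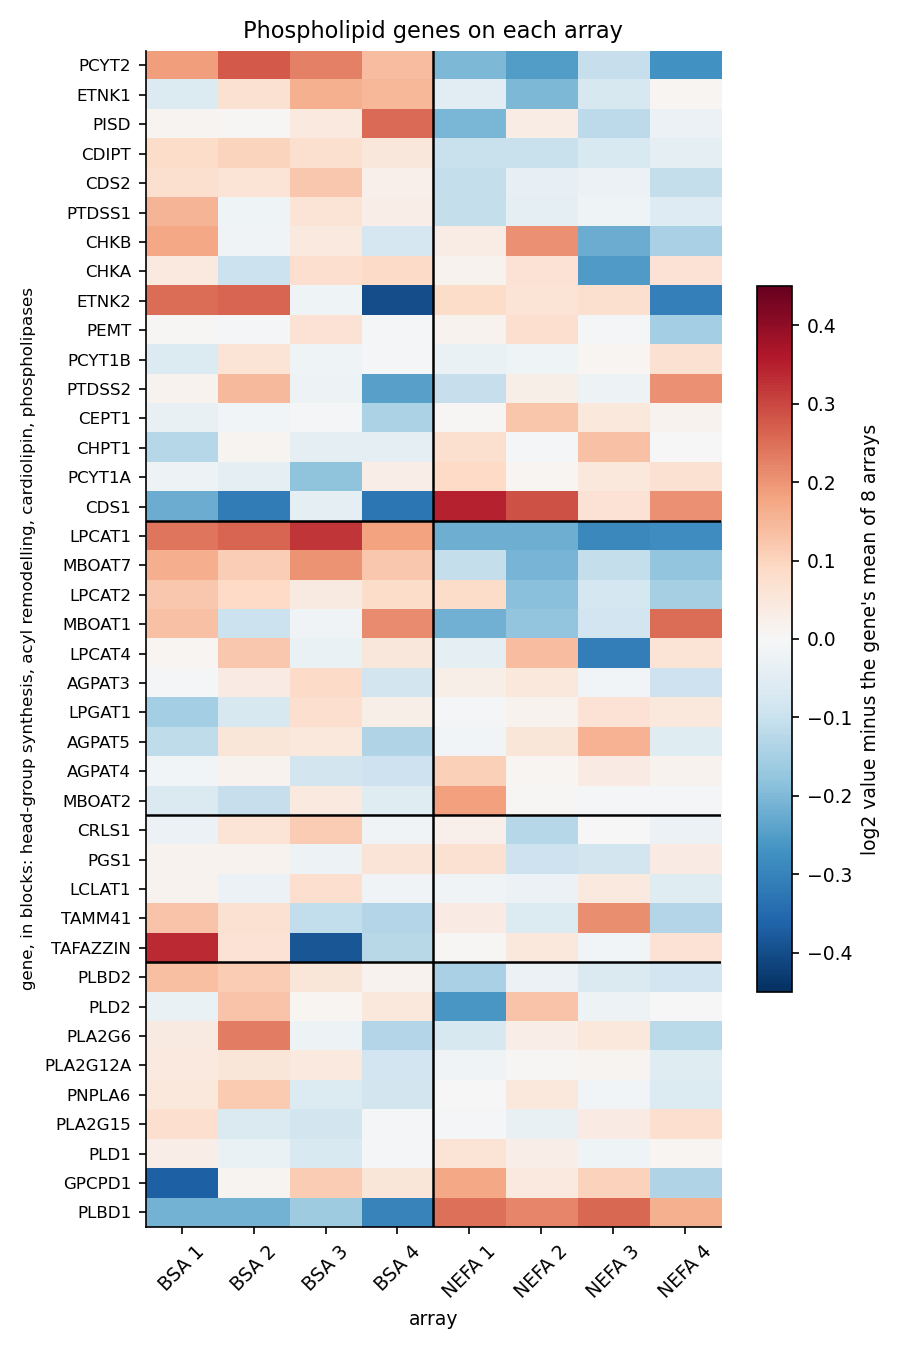
Log2 value of each gene on each array minus the mean of that gene over the 8 arrays (colour scale; arrays in columns, genes in rows, black lines between role groups and between BSA and NEFA). PCYT2, LPCAT1, MBOAT7, CDIPT, CDS2 and PLBD2 are above their mean on all BSA arrays and below it on all NEFA arrays, CDS1, PLBD1 and CEPT1 the reverse, while ETNK2 and TAFAZZIN differ most within a group.

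For 11 pairs of enzymes that share a step, the within-array difference of log2 values was compared between the groups, which asks whether the 2 genes changed unequally and compares no levels between them. The difference PLBD1 minus PLBD2 went from -1.41 ± 0.06 to -0.80 ± 0.07, a change of 0.60, and CDS1 minus CDS2 went from -2.43 ± 0.09 to -1.84 ± 0.15, a change of 0.59 (SD, n = 4). LPCAT1 minus LPCAT2 went from 1.45 ± 0.08 to 1.11 ± 0.12, a change of -0.335. In these 3 pairs the groups did not overlap, giving p = 0.0286 each (exact permutation test over arrays, two-sided), the smallest value that 4 against 4 arrays allow. Adjusted over the 11 pairs by Benjamini-Hochberg, each had an exact p = 0.105, so no pair passed. With 0.0286 as the smallest possible value, 3 separated pairs among 11 could not pass, however far apart their groups. The adjusted exact test therefore cannot decide on these 3 pairs. Each of them also holds a gene called above from the same arrays (PLBD1, CDS1 or LPCAT1), so its separation is no independent result. With limma on the pair differences, a test chosen after seeing the data and adjusted over all probe sets, PLBD1 with PLBD2 and CDS1 with CDS2 passed (adjusted p = 0.00545 and 0.0208) and LPCAT1 with LPCAT2 did not (adjusted p = 0.0932).

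The remaining 8 pairs showed smaller shifts, with exact permutation p from 0.114 to 1. The change of the difference was 0.00 for CHPT1 with CEPT1 (95% interval from -0.19 to 0.19, limma) and 0.01 for CHKA with CHKB (from -0.22 to 0.24). For ETNK1 with ETNK2 the interval was wide, from -0.575 to 0.355. The pairs PCYT1A with PCYT1B and PLD1 with PLD2 had positive shifts of 0.09 and 0.12, and AGPAT3 with AGPAT4, PTDSS1 with PTDSS2 and MBOAT1 with MBOAT2 had shifts of -0.10, -0.165 and -0.205, all with intervals that include 0.

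**Figure D4:**
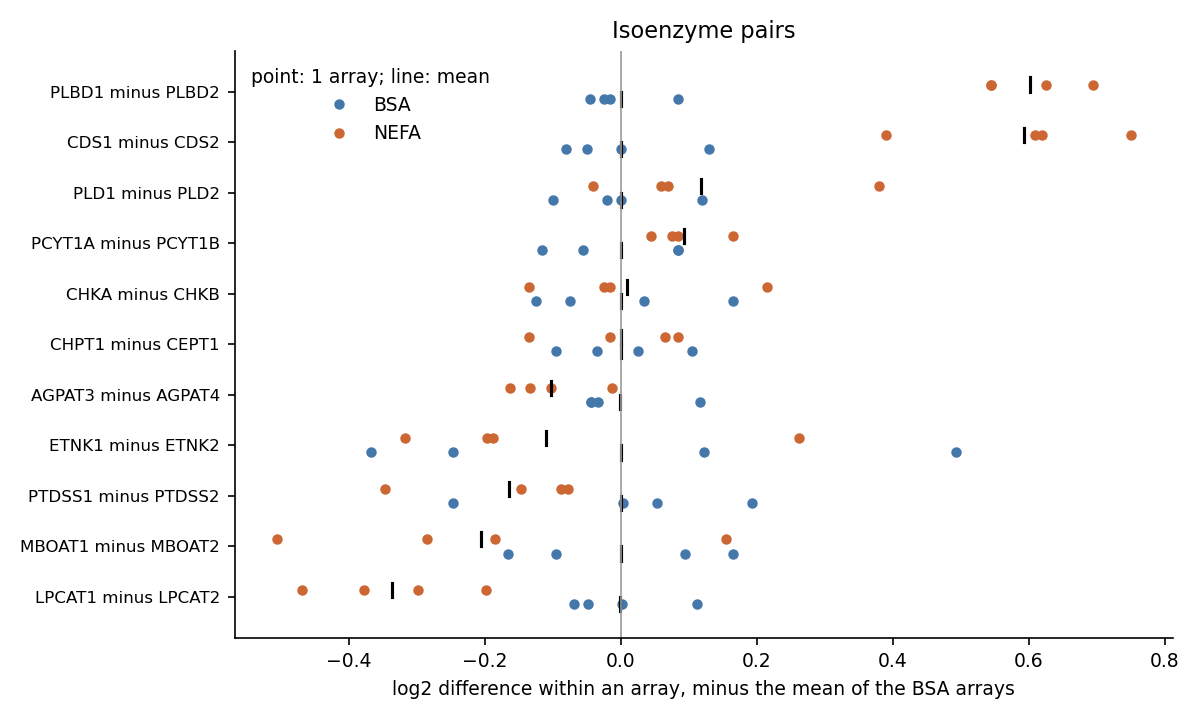
Within-array log2 difference between the 2 genes of each pair, minus the mean of that difference over the BSA arrays (horizontal axis; points are arrays, black lines group means). The groups are separate for PLBD1 minus PLBD2, CDS1 minus CDS2 and LPCAT1 minus LPCAT2, and overlap for the other 8 pairs.

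Other genes of the pathway were taken from a list of 91, of which 84 were measured. Of these, 5 fell, 0 rose and 79 missed the threshold (limma, adjusted over all probe sets), where 1.35% of all genes fell and 0.999% rose. The falls were 1 each in phosphatidic acid steps (1 of 16), choline and ethanolamine supply (1 of 11), acyl remodelling (1 of 10), phospholipid transfer and flipping (1 of 16) and ether lipid synthesis (1 of 5), while 0 of 26 further phospholipases passed (unadjusted p was under 0.05 for 2 higher and 4 lower ones). LPIN1, which makes diacylglycerol from phosphatidic acid, fell by 0.44, and LPCAT3, which puts polyunsaturated chains on lysophosphatidylcholine, fell by 0.39. SLC44A2, a choline transporter-like protein, read 9.74, 9.78, 9.78 and 9.78 with BSA and 9.46, 9.51, 9.56 and 9.46 with NEFA, and fell by 0.27 (limma, adjusted p = 0.0282). ATP8A1, a flippase of aminophospholipids, fell by 0.31 (7.13 ± 0.03 to 6.82 ± 0.06; SD, n = 4; limma, adjusted p = 0.0217). PEDS1, the desaturase that makes plasmalogens, fell by 0.285 (8.99 ± 0.07 to 8.70 ± 0.04; SD, n = 4; limma, adjusted p = 0.0394). The call of LPIN1 held without any 1 array and that of LPCAT3 was lost in just 1 of these 8 fits, without NEFA 1. SLC44A2 lost its call whichever array was left out, ATP8A1 without all but NEFA 1, and PEDS1 without all but BSA 4, so that 2 or 3 of the 84 genes passed when 1 array was left out.

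**Figure D5:**
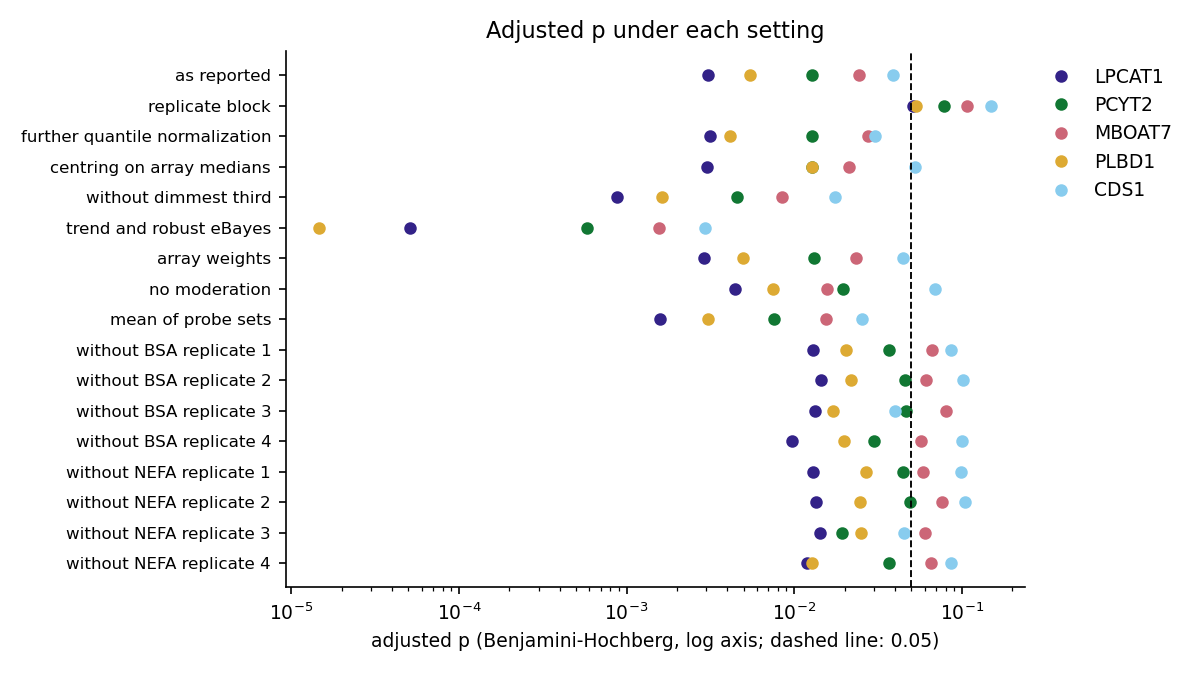
Benjamini-Hochberg adjusted p (horizontal log axis, dashed line at 0.05) of the 5 called genes under each setting of the limma test (vertical axis). LPCAT1, PLBD1 and PCYT2 stay under 0.05 in each setting but the replicate block, while MBOAT7 crosses it whenever 1 array is left out and CDS1 in 9 of 16 alternatives.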

How the data were processed

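Expression was measured in 8 single-sample Affymetrix arrays, 4 per group. The deposited values are log2 expression that the authors made with RMA, per the submitters' processing notes; its software and version and the genome build were not given in the sources used here. RMA makes the arrays' distributions nearly alike, so a change shared by all transcripts cannot be read from these values. Array medians still ran from 4.78 to 4.86 and were on average 0.035 higher with NEFA than with BSA. The median changes of the role groups, from -0.051 to -0.012, are of similar size to this shift. Values ran from 0.64 to 13.49. Arrays give no read depth, and their number limits precision. Symbols came from the platform annotation, updated by gene ID through a RefSeq table (ARS-UCD2.0), which matched 17996 probe sets. Of the probe sets 18457 had 1 symbol, 688 several and 5270 none. The brightest probe set stood for a gene. No coordinates or sequences are given. NEFA minus BSA was fitted in R 4.3.3 with limma 3.58.1 (lmFit, eBayes) and tested on simulated data. The members, lists, pairs and tests were chosen with earlier results of these data known. All 40 members could be named: those past the threshold with every reading, and in each role group the 2 others of largest change and of smallest p with values. Of the other pathway genes the Results name those past the threshold; those named under the other observations were chosen after their values were seen. Readings of CEPT1, ETNK2 and TAFAZZIN were added after their values were seen. Alternatives were a replicate block, quantile normalization, median centring, leaving out the dimmest 33.3% of probe sets, trend and robust eBayes, array weights, no moderation, averaging the probe sets of each gene, and leaving out each array. The labels name no batch.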

Additional observations from a re-analysis of the deposited data

Results flagged for a closer look

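In 6 of 80 groups of 4 readings (40 genes in BSA and NEFA), 1 array stood apart from the others by Dixon's criterion at the 95% level; chance flags about 1 in 20 groups. CHKA read 6.87 on NEFA 3, against 7.14 to 7.19 on the other NEFA arrays. ETNK2 read 6.13 on NEFA 4, against 6.50 to 6.52. MBOAT2 read 6.79 on NEFA 1, where the next highest was 6.61. With BSA, PEMT read 6.80 on BSA 3 (next 6.74), PISD read 6.58 on BSA 4 (next 6.37) and PLA2G12A read 6.95 on BSA 4 (next 7.08). None of these genes passed the limma threshold, and the 6 readings lay on 5 arrays.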

How the results depend on the processing

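The count of called phospholipid genes was 5 as reported, 8 with trend and robust eBayes (6 lower), where 6.09% of all genes (1097) were called, and 3 to 4 without 1 array. Of the 2 rises, 1 remained with array centring, with no moderation and in 6 of 8 fits without 1 array (range 1 to 2). Over all 24415 probe sets, the deviations of same-numbered arrays from their group means had correlations from -0.014 to 0.073. Dim probe sets entered these values too, so they cannot decide whether the numbers pair the samples. With the replicate block 0 of the 40 genes passed (0 higher and 0 lower), and the lowest adjusted p (limma) was 0.0515, for LPCAT1. Of all genes 77 passed with the block (45 higher, 32 lower), and of the 84 other pathway genes 0 (0 lower). With it 0 of the 11 isoenzyme pairs passed, where the smallest possible exact p was 0.125. Over all genes the count was 790 without the dimmest 33.3% of probe sets (315 higher, 475 lower), 418 higher and 679 lower with trend and robust eBayes, and 127 higher and 302 lower with array centring. Without 1 array it ran from 164 to 260 (72 to 128 higher, 82 to 132 lower). Of the other pathway genes 11 passed with trend and robust eBayes (2 higher, 9 lower), 2 rose without the dimmest 33.3%, 1 rose with quantile normalization and 1 with the mean of probe sets; without 1 array 2 to 3 passed (2 to 3 lower). The head-group median was -0.086 with centring and -0.081 to -0.017 without 1 array, and the acyl remodelling median -0.022 with quantile normalization, -0.081 with centring and -0.056 to 0 without 1 array. The cardiolipin median (-0.025) was 0.003 with quantile normalization, and the phospholipase median (-0.012) was 0.009 with it, -0.048 with centring and -0.042 to 0.023 without 1 array. With limma on pair differences, added after seeing the data, 2 pairs passed; without 1 array the exact test cannot go below 0.0571. Small changes that did not pass took the opposite sign for AGPAT3 (0.009), LCLAT1 (0.003) and PNPLA6 (0.009) with quantile normalization and for PCYT1B (-0.02) and TAMM41 (-0.01) with centring. Leaving out 1 array turned the sign of some as well, within ranges of -0.048 to 0.011 for AGPAT3, -0.096 to 0.021 for CHKA, -0.188 to 0.048 for ETNK2, -0.014 to 0.153 for GPCPD1, -0.134 to 0.016 for LPCAT4, -0.006 to 0.038 for PCYT1B, -0.063 to 0.013 for PEMT, -0.111 to 0.009 for PLA2G6, -0.042 to 0.025 for PNPLA6, -0.020 to 0.110 for PTDSS2, -0.067 to 0.173 for TAFAZZIN and -0.040 to 0.073 for TAMM41, and of -0.058 to 0.065 for CHKA minus CHKB and -0.234 to 0.054 for ETNK1 minus ETNK2. The cause of these differences was not tested.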

Other observations

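Of the 84 other pathway genes, 18 (21.4%) had groups that did not overlap, where 12.4% of all genes did, and 13 of these 18 did not pass the adjusted threshold (4 higher and 9 lower). The 13 are all named here, after their values were seen. GPAM, the mitochondrial acyltransferase of the first step from glycerol phosphate, was 7.18 ± 0.04 with BSA and 7.44 ± 0.09 with NEFA (SD, n = 4), a change of 0.26 (limma, adjusted p = 0.0735). LYPLAL1, a lysophospholipase-like protein, changed by 0.30 (adjusted p = 0.0802, limma). In ether lipid synthesis the values of all 5 measured genes were lower with NEFA, but besides PEDS1 only FAR1, which makes the fatty alcohol, had separate groups (8.26 ± 0.04 to 8.06 ± 0.10; SD, n = 4; limma, adjusted p = 0.137). AGPS, GNPAT and FAR2 changed by -0.02, -0.05 and -0.01. PLA2G4A, the cytosolic phospholipase A2 that releases arachidonate, was 8.13 ± 0.06 with BSA and 8.0 ± 0.01 with NEFA (SD, n = 4), without overlap, and did not pass (limma, adjusted p = 0.269). FLVCR1, a choline carrier, changed by -0.21 (limma, adjusted p = 0.171). The remaining 8 were SLC44A5 and TMEM30A, at 0.24 and 0.07, and PLA2G7, LRAT, LYPLA2, ABHD12, PLD3 and STARD7, at between -0.33 and -0.10 (limma, adjusted p from 0.136 for SLC44A5 to 0.512 for TMEM30A).

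A second probe set annotated to CHPT1 was shared with SYCP3 and so not used for either gene; its level was low (2.65 with BSA, 2.61 with NEFA) and changed by -0.035.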
